A study of Mus musculus with 32 samples.

Results

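Genes of the GABA pathway were followed through the soma and the dendrites of single hippocampal neurons. They are *Gad1* and *Gad2*, which make GABA, *Slc32a1*, which packs it into synaptic vesicles, *Slc6a11*, which takes it up again, and *Abat*, which breaks it down. The genes were taken by name from the table of reads on the 3′UTRs, where they are 5 of 44081 genes, and 14 of the 74532 individually counted 3′ end features belong to them. They were chosen by name after results on the 3′UTR counts of these same libraries were known, with no threshold on any value, so the p-values below only describe them.

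The libraries came from 16 neurons of C57BL/6 mice, taken at embryonic day 18 and kept in culture for 15 days without any treatment. Dendrites and soma of each neuron were separated with micropipettes and amplified as separate poly-adenylated RNA samples, which gave 16 Dendrite and 16 Soma libraries. The amplified RNA (aRNA) method was run for 3 rounds in neurons 1 to 4 and for 2 rounds in the other 12 neurons. The labels give the cells only as hippocampal neurons, with no subtype, and do not say which neurons shared a culture. Axons were not collected as a compartment of their own.

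GABA is the main inhibitory transmitter of the forebrain, and in the hippocampus it is made by interneurons. Glutamate decarboxylase converts glutamate to GABA and comes in separate forms, GAD67 from *Gad1*, found throughout the cell, and GAD65 from *Gad2*, held mostly at nerve terminals. The vesicular transporter VGAT, the product of *Slc32a1*, loads GABA into vesicles, plasma membrane transporters such as GAT3 (*Slc6a11*, mainly astrocytes) clear it from the extracellular space, and GABA transaminase (*Abat*) degrades it in mitochondria.

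The aRNA method primes on poly-A tails, so the reads of a gene come from the stretch before its 3′ end. The annotated end of the longest protein-coding transcript of each of the 5 genes is shown. Whether these are the ends that were counted was not tested, because the 3′ end features carry no coordinates. In the GENCODE M21 annotation of GRCm38 (mm10), *Gad1*, *Gad2* and *Slc32a1* lie on chromosome 2, *Slc6a11* on chromosome 6 and *Abat* on chromosome 16, all on the plus strand. Each window of 30 bases lies in the 3′UTR of the longest protein-coding transcript and is written 5′ to 3′, with the poly-A signal in capitals:
Gad1, chr2:70601981-70602010: gaatataaataaAATAAAaaatattctcca
Gad2, chr2:22693842-22693871: tctctaaacccaAATAAAtgtgtaaatgta
Slc32a1, chr2:158615715-158615744: attatatccgcaAATAAAgaagaaacaaag
Slc6a11, chr6:114249912-114249941: tcgtttttaaaaATTAAAggacgtggatca
Abat, chr16:8621530-8621559: cagtattcttaaATTAAAagaaaatgttta

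The 3 genes of synthesis and packaging carried the signal AATAAA, and *Slc6a11* and *Abat* carried the variant ATTAAA. The search was made on the transcribed strand in the last 50 bases of the transcript, with AATAAA taken where both occurred. Of 48042 protein-coding transcripts with an annotated end, 49.3% held AATAAA there, 14.4% held ATTAAA and 60.9% held either. The annotated 3′UTRs, joined over the transcripts of a gene, measured 1889 bases in *Gad1*, 3531 in *Gad2*, 747 in *Slc32a1*, 2215 in *Slc6a11* and 3542 in *Abat*.

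Reads on 3′UTRs numbered from 646521 to 6954420 in dendrites (median 1605714) and from 925525 to 21169974 in somas (median 6165691), and the soma was the deeper library in 15 of 16 neurons. *Map2*, whose mRNA is a marker of dendrites, was higher in dendrites (log2 fold change 2.66 ± 0.49 SE, edgeR quasi-likelihood test, adjusted p = 0.00202), in 14 of 16 neurons. The exceptions were neurons 2, with 1140 normalized reads in dendrites and 1921 in the soma, and 14, with 365 and 962. A normalized read is a read divided by the size factor of its library. The soma library of neuron 2 also held the highest summed level of 8 glutamatergic marker genes among somas, 9386 normalized reads against at most 758 in the others. In neuron 2 the library labelled soma also held less of 13 GABAergic markers than the library labelled dendrites (summed levels of 3117 and 9267 normalized reads), beside the *Map2* level that ran against its labels. Exchanged libraries and material from different cells cannot be told apart here, and every comparison of dendrites with soma in neuron 2 is subject to this. The main comparisons are therefore also given without neurons 2 and 14.

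The labels give no transmitter type, so the members were set beside marker lists. *Gad1* and *Gad2* had at least 10 reads in all 32 libraries, *Slc32a1* in 31 and *Abat* in 32, whereas *Slc6a11* reached 10 reads in 8 somas and 0 dendrites. Over 13 further genes that mark GABAergic neurons, summed levels ran from 3117 to 32566 normalized reads in somas (median 14630) and from 1219 to 9267 in dendrites (median 4928). *Reln* and *Npy* had the highest medians of this list, 5628 and 3356 in somas and 1955 and 451 in dendrites. *Sst*, *Vip* and *Calb2* had medians of 0 in both compartments. The 8 glutamatergic markers summed to 7.82 to 9386 normalized reads in somas (median 168) and to 1.45 to 8313 in dendrites (median 494). The GABAergic sum was above the glutamatergic sum in 15 of 16 somas, all but neuron 2, and in 15 of 16 dendrites, all but neuron 15, where *Neurod2* alone gave the 8313. Of the GABAergic list, 10 genes were tested, with *Dlx6* called higher in somas and *Pvalb*, a calcium-binding protein of fast-spiking interneurons, called higher in dendrites, at adjusted p-values of 0.0216 and 0.0439 (edgeR). Of these 10 genes, 9 had an unadjusted p under 0.05, against 3287 of all 10880 genes tested (edgeR). The median log2 fold change of dendrites over somas was -1.98 for the 10 genes, against -1.49 over all genes tested. None of the 4 tested glutamatergic markers was called (1 had an unadjusted p under 0.05, edgeR), and their median was 1.66, with all 4 above the median of all genes. The part of these markers in the values of the members was not tested.

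**Figure D1:**
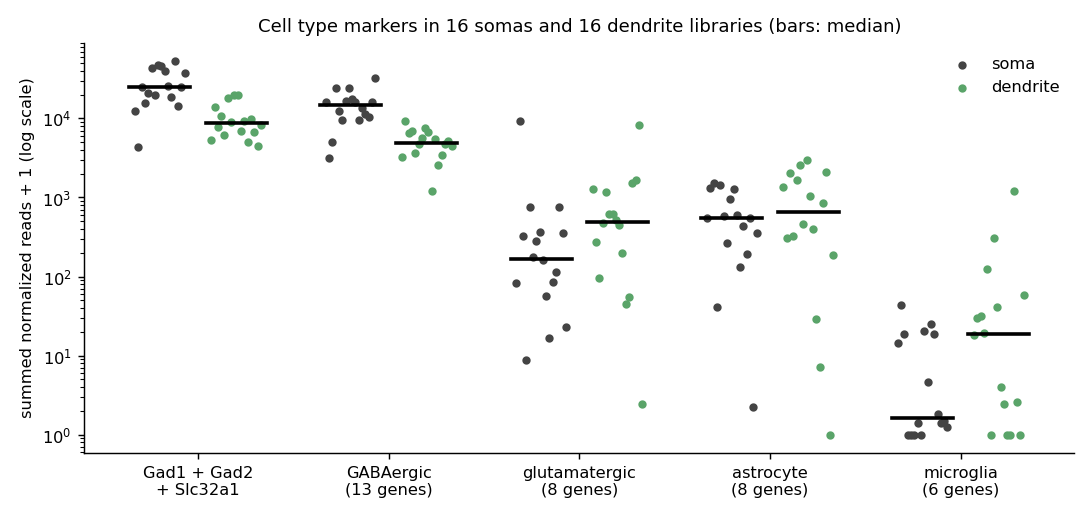
Summed normalized reads plus 1, on a log scale, of *Gad1*, *Gad2* and *Slc32a1* and of 4 marker lists. Each point is 1 library (16 somas in grey, 16 dendrites in green) and each bar the median. The members and the GABAergic list lie above the other lists in nearly every library, with soma 2 and dendrite 15 as the highest glutamatergic points.

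Per kilobase of annotated 3′UTR, *Gad1* was the most abundant member in somas, with a median of 9078 normalized reads per kilobase, then *Slc32a1* (3011), *Gad2* (1785), *Abat* (312) and *Slc6a11* (5.12). The order of the medians was the same in dendrites, at 2630, 1550, 976, 271 and 0 normalized reads per kilobase. Neighbours in this order overlapped across libraries, except that every dendrite held more *Abat* (at least 16.9 per kilobase) than any dendrite held *Slc6a11* (at most 9.68). Against the vesicular glutamate transporter *Slc17a7*, the level per kilobase was higher for *Gad1* in all 32 libraries, for *Gad2* in 16 dendrites and 15 somas, and for *Slc32a1* in 13 dendrites and 16 somas. Reads come from the stretch before the 3′ end, so they need not grow with the 3′UTR length used in these comparisons. Without the division, *Gad2* lay above *Slc32a1*, with medians of 6304 and 2249 normalized reads in somas and 3448 and 1158 in dendrites. The order of *Slc32a1* over *Gad2* thus rests on the division by length.

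*Gad1* was lower in dendrites than in the soma in 15 of 16 neurons. In somas it ran from 2684 normalized reads (neuron 2) through a median of 17149 to 32257 (neuron 13), and in dendrites from 264 (neuron 15) through a median of 4967 to 12464 (neuron 8). The groups overlapped: 1 soma, that of neuron 2, lay below the dendrite median, and the next lowest soma held 7968. Neuron 2, in which *Map2* also ran against the labels, was the exception to the direction, with 7397 normalized reads in dendrites and 2684 in the soma. At the other end, neuron 15 had 264 in dendrites against 15086 in the soma, while its dendrites held 3950 normalized reads of *Gad2*. As a share of all counted reads, *Gad1* reached 1.29% (95% Wilson interval 1.28 to 1.30) in soma 6 and was 0.00698% (0.00597 to 0.00816) in dendrite 15, and these intervals cover counting error only.

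*Gad2*, the form typical of nerve terminals, had the higher level in the soma in 14 of 16 neurons. Somas held from 1158 (neuron 2) through a median of 6304 to 16894 normalized reads (neuron 13), and dendrites from 1224 (neuron 7) through a median of 3448 to 8134 (neuron 9). All dendrite values lay within the soma range. The exceptions were neuron 2, with 3194 in dendrites and 1158 in the soma, and neuron 14, with 3655 and 3501, the same neurons in which *Map2* was not higher in dendrites.

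**Figure D2:**
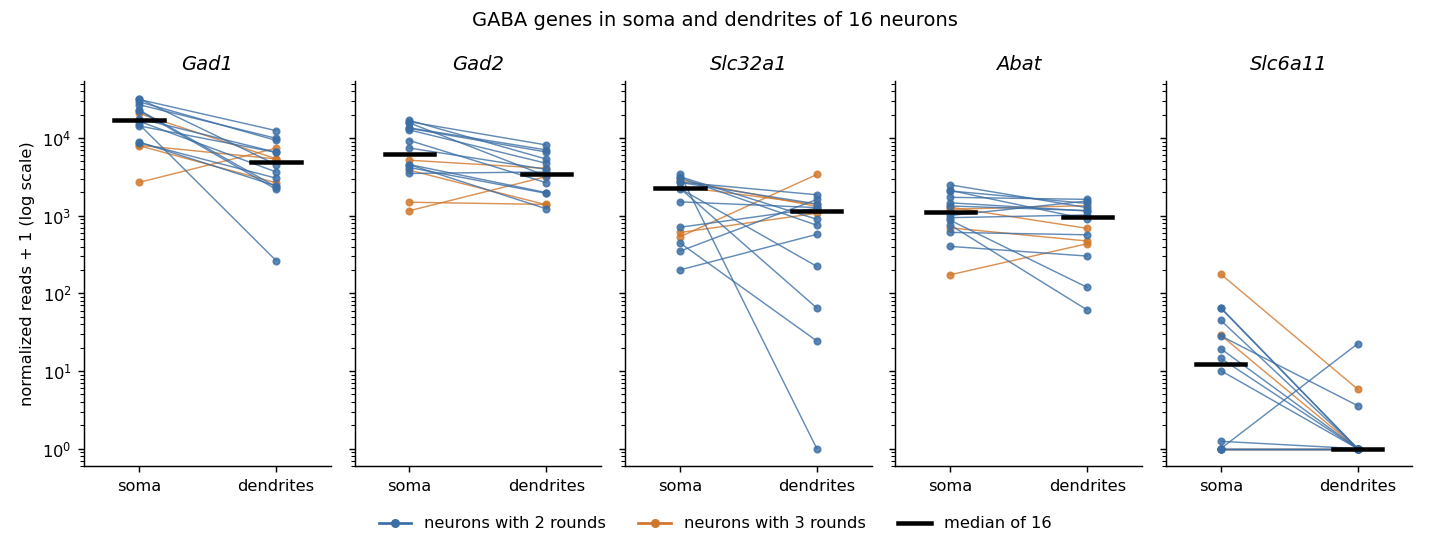
Normalized reads plus 1 (log scale) of the 5 genes in the soma and the dendrites, with a line for each of 16 neurons, blue for 2 and orange for 3 rounds of amplification. Black bars are medians. *Gad1* and *Gad2* lines mostly fall toward dendrites, *Abat* lines are nearly level, *Slc32a1* lines cross, and *Slc6a11* lies close to 0 in dendrites.

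*Slc32a1* varied widely between dendrites. In somas it ran from 199 (neuron 5) through a median of 2249 to 3464 normalized reads (neuron 13), and in dendrites from 0 (neuron 13) through a median of 1158 to 3392 (neuron 2). Dendrites 12, 13, 14 and 15 held 23.4, 0, 63.7 and 221 normalized reads, and the other 12 dendrites held 574 or more. The somas of those 4 neurons held 447, 3464, 2263 and 2235 normalized reads. In dendrite 13 the count was 0 of 1263388 reads, which allows a share of up to 0.000237%, and the reads on its exons were also 0. Dendrite 14 held 196 reads on exons of *Slc32a1* against 40 on its 3′UTR. In 5 of 16 neurons (2, 3, 5, 6 and 7) the dendrites held the higher level, and in 4 of 14 without neurons 2 and 14.

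*Abat* had close medians in the compartments. Somas ranged from 173 (neuron 2) through a median of 1106 to 2494 normalized reads (neuron 5), and dendrites from 60.0 (neuron 10) through a median of 960 to 1621 (neuron 13). Nearly all of the dendrite range lay within the soma range, and 4 of 16 neurons had the higher level in dendrites (3 of 14 without neurons 2 and 14). Dendrites 10 and 15 were far below the rest, at 60.0 and 118 normalized reads, and their somas held 758 and 871.

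*Slc6a11* was barely detected. In dendrites it had 0 reads in 13 libraries and 1, 8 and 1 reads in neurons 2, 6 and 13. In somas it had 0 reads in 6 libraries, a median of 21 and a highest value of 356 reads (neuron 9), and the highest normalized level, 176, was that of soma 2. When soma reads were scaled to the depth of the dendrites of the same neuron, 7 somas still reached 10 reads. A count of 0 allowed a share of up to 0.000295% in the shallowest of these dendrites. The gene did not pass the filter of at least 1 read in at least 16 libraries, so it has no value in the main comparison.

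Because GAT3 belongs mainly to astrocytes, 8 astrocyte markers were set beside it. They summed to 1.21 to 1506 normalized reads in somas (median 550) and to 0 to 2956 in dendrites (median 660). *Slc1a2* made up much of this sum, with medians of 393 in somas and 329 in dendrites, and *Gfap* had medians of 0 in both compartments. *Gjb6* was at 0 in all libraries. The median of the list was thus not lower in dendrites, where *Slc6a11* was near 0, and the part of astrocyte RNA in the soma reads of *Slc6a11* was not tested. Summed markers of oligodendrocytes (medians of 56.2 and 84.3 in somas and dendrites), microglia (0.645 and 18.0) and endothelial cells (0.711 and 5.20) were lower.

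The dendritic read fraction, the normalized reads in dendrites over those in dendrites and soma, put the members in the order of their compartment differences. It was 0.247 ± 0.162 (SD, n = 16) for *Gad1*, 0.345 ± 0.140 for *Gad2*, 0.387 ± 0.286 for *Slc32a1* and 0.416 ± 0.162 for *Abat*. For *Slc6a11*, 9 neurons had at least 10 normalized reads in all, with a median fraction of 0 and a single neuron (6) at 1. The spread between neurons was larger than the steps between neighbouring genes in this order. Without neuron 2 the fraction of *Gad1* was 0.214 ± 0.0993 (n = 15), and the number of neurons with more *Gad1* in dendrites was 0 of 15. Without neurons 2 and 14 the fractions were 0.211 ± 0.102 for *Gad1*, 0.306 ± 0.0855 for *Gad2*, 0.378 ± 0.259 for *Slc32a1* and 0.394 ± 0.151 for *Abat* (n = 14).

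**Figure D3:**
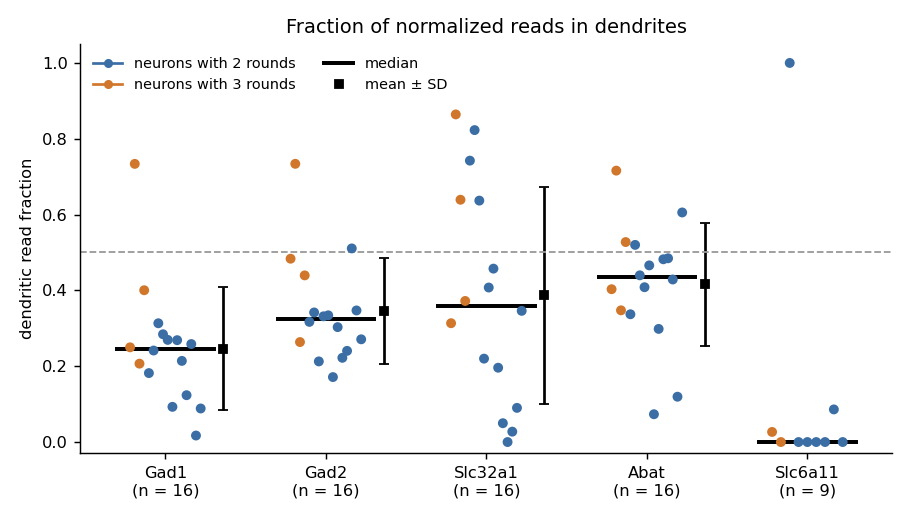
Dendritic read fraction of each gene, 1 point per neuron with at least 10 normalized reads in total (blue, 2 rounds and orange, 3 rounds), black bars at the median and squares at the mean ± SD. The dashed line marks equal levels. A single *Gad1* point, neuron 2 at 0.734, lies above it, while *Slc32a1* spreads from 0 to 0.864.

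To compare the compartments, edgeR's quasi-likelihood test was run on the counts of all 10880 genes that passed the filter, with the neuron as a block. *Gad1* was lower in dendrites (log2 fold change -1.58 ± 0.38 SE, adjusted p = 0.0148, edgeR). *Gad2* had -0.74 ± 0.35 (adjusted p = 0.150, edgeR), *Slc32a1* -0.63 ± 0.70 (0.528) and *Abat* -0.27 ± 0.53 (0.733), and none of these passed the threshold of 0.05. Their 95% intervals ran from -1.43 to -0.05, from -2.01 to 0.75 and from -1.31 to 0.77. Without neurons 2 and 14 the log2 fold change of *Gad1* was -1.75 ± 0.40 (adjusted p = 0.0105, edgeR), and the other 3 were still not called. Of the 4 tested members, 1 thus passed with the higher level in somas and 0 with the higher level in dendrites, against 5.71% and 0.827% of all genes tested. Less RNA in the collected dendrites and less of a given RNA per dendrite were not told apart here. No comparison used reads of the ERCC spike-in RNA.

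Most genes lay below 0 in this comparison. Over all genes tested the log2 fold change had a median of -1.49, and *Gad1* lay 0.09 below that median while *Gad2*, *Slc32a1* and *Abat* lay 0.75, 0.86 and 1.22 above it. With dendrite libraries rescaled so that this median became 0, the calls turned from 90 higher in dendrites and 621 higher in somas to 548 and 92. *Gad1* then had a log2 fold change of -0.09 and was no longer called (adjusted p = 0.926, edgeR), and the other 3 turned positive, without passing the threshold. The direction given for *Gad2*, *Slc32a1* and *Abat* and the call of *Gad1* are thus tied to the scaling.

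**Figure D4:**
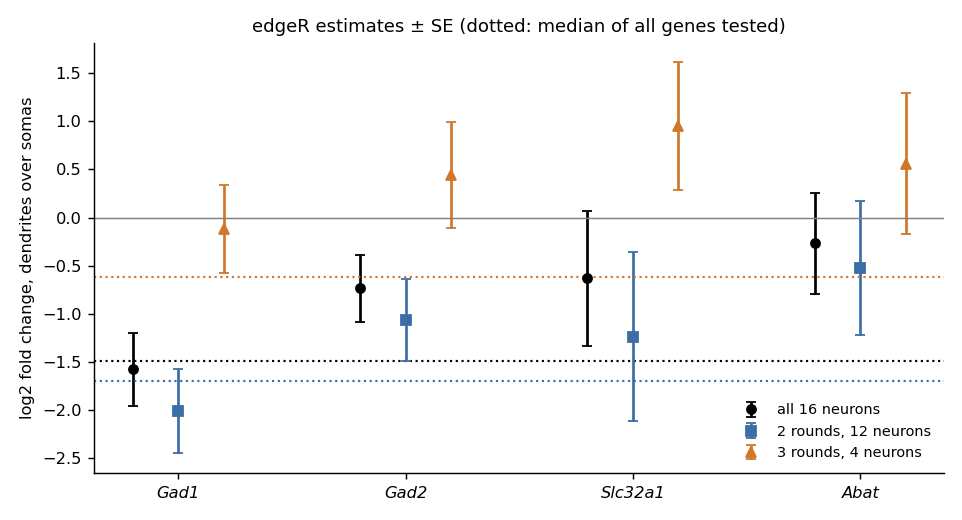
Log2 fold change of dendrites over somas with its SE (edgeR) for the 4 tested genes, in all 16 neurons (black), the 12 neurons with 2 rounds (blue) and the 4 with 3 rounds (orange). Dotted lines mark the median of all genes tested in each fit (-1.49, -1.70 and -0.62). *Gad1* lies lowest in each fit, and the 3-round estimates lie above the 2-round estimates.

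The labels give the rounds of amplification and the dilution of ERCC spike-in RNA, which is 1:4000000 for 14 neurons and 0 for neurons 1 and 2. Without neurons 1 and 2 the log2 fold change of *Gad1* was -1.81 ± 0.40 (adjusted p = 0.00846, edgeR), and the other 3 were not called. These 2 neurons lie within the group with 3 rounds and were not fitted on their own. Within the 12 neurons with 2 rounds, the log2 fold change of *Gad1* was -2.02 ± 0.44 (adjusted p = 0.0144, edgeR). Within the 4 neurons with 3 rounds it was -0.12 ± 0.46 and was not called (adjusted p = 0.983, edgeR). *Gad2* had -1.06 with 2 rounds and 0.44 with 3, *Slc32a1* -1.24 and 0.95, and *Abat* -0.52 and 0.56. The 3-round values rested in part on neuron 2. In the other 3 neurons with 3 rounds *Gad1* had -0.72 ± 0.36 (adjusted p = 0.662, edgeR), *Gad2* 0.01, *Slc32a1* 0.27 and *Abat* 0.21. The test of the difference between the rounds gave 1.76 ± 0.83 for *Gad1* (unadjusted p = 0.0387, adjusted p = 1, edgeR) and called none of the 10880 genes (0% called, 288 at an unadjusted p under 0.05). Without neurons 2 and 14 it gave 1.22 ± 0.91 for *Gad1* (unadjusted p = 0.186, adjusted p = 1, edgeR). DESeq2 called 24 genes with a positive and 20 with a negative difference, and no member was among them. The median gene also moved with the rounds, by 0.74, and neuron 2, the exception for *Gad1*, is 1 of the 4 neurons with 3 rounds.

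The ratio of 2 genes within a library does not depend on the scaling of the libraries, and it was examined after the values above were seen. The log2 ratio of *Gad2* to *Gad1* reads had a median of -1.16 in somas and -0.41 in dendrites, and 15 of 16 neurons had the higher ratio in dendrites, by 0.93 ± 1.27 (SD, n = 16). Neuron 15 contributed the largest difference, 4.92, and without it the mean was 0.66 ± 0.71. The direction held in 11 of 12 neurons with 2 rounds and in 4 of 4 with 3 rounds, where neuron 2 differed by less than 0.01. On exon reads the ratio was higher in dendrites in 14 of 16 neurons. Without neurons 2 and 14 it was higher in 13 of 14 on 3′UTR reads.

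*Abat* was compared with *Gad1* in the same way. The log2 ratio of *Abat* to *Gad1* had a median of -3.98 in somas and -2.69 in dendrites, and 14 of 16 neurons had the higher ratio in dendrites, by 1.30 ± 1.14. *Slc32a1* relative to *Gad1* was higher in dendrites in 10 of 16 neurons. Without neurons 2 and 14 these counts were 13 and 9 of 14.

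**Figure D5:**
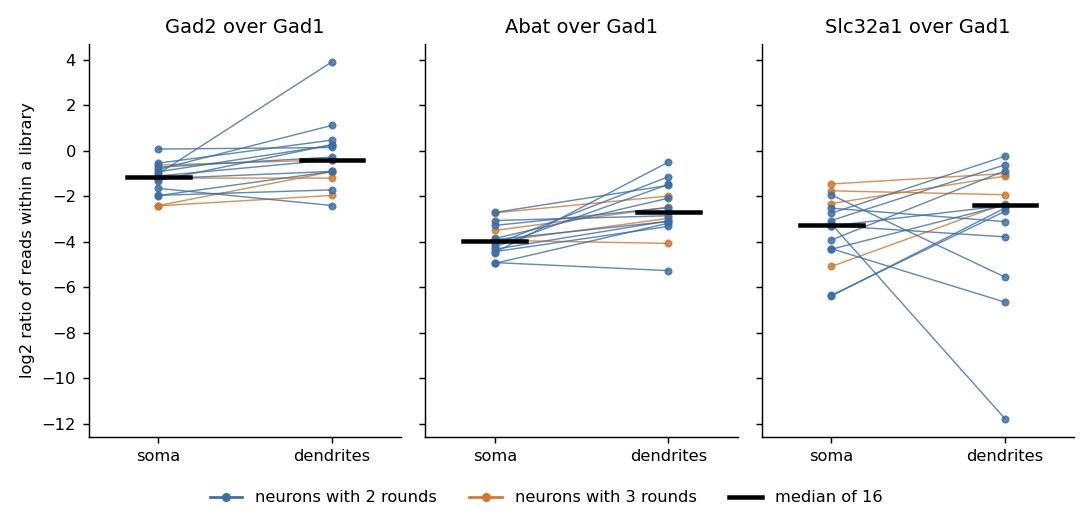
Log2 ratio of *Gad2*, *Abat* and *Slc32a1* reads to *Gad1* reads in the soma and the dendrites of each neuron (blue, 2 rounds and orange, 3 rounds), with medians as black bars and 0.5 added to each count. Lines rise toward dendrites in 15 of 16 neurons for *Gad2*, 14 for *Abat* and 10 for *Slc32a1*, whose lowest point is dendrite 13 with 0 reads.

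Across the 16 somas the members were not equally linked. Levels on the log2 scale of *Gad1* and *Gad2* went together (Pearson's r = 0.82, Spearman's rho = 0.82, and r = 0.66 without the 2 somas farthest from the median of *Gad1*), and those of *Gad1* and *Slc32a1* less so (r = 0.21, rho = 0.30). In the 16 dendrites r was 0.14 for *Gad1* with *Gad2* (rho = 0.24). Between the compartments of a neuron, r was 0.66 for *Gad2* (rho = 0.72), 0.51 for *Abat* (0.69), 0.12 for *Gad1* (0.27) and -0.17 for *Slc32a1* (-0.11). Without neurons 2 and 14, r for *Gad1* with *Gad2* was 0.70 in somas and 0.15 in dendrites, and r between the compartments was 0.83 for *Gad2*, 0.58 for *Abat*, 0.34 for *Gad1* and -0.08 for *Slc32a1* (n = 14). Levels within a library share its depth, and in somas the correlation with the log10 of total reads was 0.63 for *Gad1*, 0.68 for *Gad2*, 0.66 for *Slc32a1* and 0.44 for *Abat*, so these values are given as descriptions.

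Among 10147 candidate genes, those ordered most like each member over the 16 somas were named by Spearman's rho. For *Gad1* these were *Tmem158* (0.93), *Sept7*, which encodes a septin (0.89), and *2210016L21Rik* (0.87), and *Gad2* had rank 8. For *Gad2* they were *Id2*, an inhibitor of DNA binding by other transcription factors (0.89), *Ncdn* (0.88) and *Tbc1d30* (0.86), with *Gad1* at rank 10. *Slc32a1* was followed by *Tnr*, the extracellular matrix protein tenascin-R (0.93), *Fam20c* (0.91) and *Nomo1* (0.89). The genes nearest to *Abat* were *Amigo1* (0.88), *2510009E07Rik* (0.86) and *G3bp2*, a stress granule protein (0.85), and those nearest to *Slc6a11*, which is at 0 in 6 somas, were *Tmeff1* (0.87), *Mga* (0.83) and *Rimbp2* (0.80). The named genes are the highest of 10147 values over only 16 somas, and neither chance nor shared depth was tested.

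Alternative 3′ ends were examined with reads on the last 500 nt of each annotated end. Of the 14 features, *Gad1* had 4, *Gad2* 3, *Abat* 5, and *Slc32a1* and *Slc6a11* 1 each. The first-numbered feature carried nearly all reads in both compartments. It held 99.97% of the feature reads of *Gad1* in dendrites and 99.98% in somas, 99.6% and 99.5% of those of *Gad2*, and 97.8% and 99.1% of those of *Abat*. The lowest share in any library was 84.3%, for *Abat* in dendrite 7.

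The fraction of reads on the less used of the top 2 features was compared between dendrites and soma with the exact two-sided signed-rank test over 16 pairs. The mean differences were 0.00065 ± 0.0024 (SD) for *Gad1* (exact p = 0.625), 0.0023 ± 0.014 for *Gad2* (exact p = 0.787) and 0.012 ± 0.035 for *Abat* (exact p = 0.160). *Gad2* and *Abat* were not below the threshold of 0.1, which 8.41% of the 3519 genes tested passed. For *Gad1*, only 2 neurons had the higher fraction in dendrites and 2 the lower, and the others did not differ. With so few differing pairs its exact p could not fall below 0.1, so this test cannot decide for *Gad1*. After Benjamini-Hochberg adjustment 0 genes passed 0.05. The top 2 were chosen by the mean share of a feature per library, which made feature 3 the second one of *Gad1* and *Gad2* and feature 5 that of *Abat*. By reads pooled over libraries feature 2 came second in each, and the exact p-values were then 0.652 (*Gad1*), 0.465 (*Gad2*) and 0.129 (*Abat*). Reads outside the features were few in *Gad1*, where 98.6% (dendrites) and 98.4% (somas) of the 3′UTR reads lay on features, and more frequent in *Gad2*, at 85.6% and 88.1%, with 59.9% in the lowest dendrite library.

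Other genes of GABA and glutamate metabolism and transport that are reported here formed a list of 15, of which 9 passed the filter. With edgeR 0 of these were called in either direction and 3 had an unadjusted p under 0.05, and the median log2 fold change was -1.05 against -1.49 over all genes. DESeq2 called 4 of the 9 higher in somas (*Aldh9a1*, *Slc1a1*, *Slc38a1* and *Slc38a2*) and 0 in dendrites. Over all 10880 genes it called 5029 and 463. The GABA transporters *Slc6a13* and *Slc6a12* reached 10 reads in 2 and 0 of 32 libraries.

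*Aldh5a1*, which completes GABA breakdown after *Abat*, had a log2 fold change of 0.32 ± 0.86 (adjusted p = 0.806, edgeR), with medians of 551 normalized reads in somas and 667 in dendrites. *Glul*, the glutamine synthetase typical of astrocytes, had -0.21 ± 0.95 (adjusted p = 0.890, edgeR), and *Glud1*, the glutamate dehydrogenase of mitochondria, -1.05 ± 0.86 (adjusted p = 0.390, edgeR). *Glul* was found with at least 10 reads in 15 somas and 12 dendrites, at medians of 119 normalized reads in each.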

How the data were processed

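Adapters and poly-A stretches were removed by the authors, who aligned reads to mm10 with STAR (2.4.0 in the submitters' processing notes) and counted uniquely mapped reads by strand with VERSE. All deposited values used here are raw counts: reads on the joined 3′UTRs of each gene, on 3′ end features of 500 nt, and on exons. The counts carry no molecular identifiers, and the 3′ end features carry numbers without coordinates.

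Libraries were grouped by the compartment in the labels and paired by neuron, since both came from 1 cell. After centring each gene within a compartment, the correlation over genes was 0.0886 ± 0.0771 (SD, n = 16) for compartments of the same neuron and -0.00561 ± 0.0522 (n = 240) for different neurons. No pair of libraries was identical (0 of 496). Genes found with 1 read or more in 16 or more libraries were compared with edgeR 4.0.16 (TMM, robust quasi-likelihood, neuron as a block) and called at a Benjamini-Hochberg adjusted p of at most 0.05, with DESeq2 1.42.0 as an alternative, in R 4.3.3. Size factors for normalized reads came from DESeq2. Other values were computed in Python 3.11 with SciPy 1.17.1, pandas 2.3.3 and NumPy 2.4.6, and positions, 3′UTR lengths and sequences came from GENCODE M21. A pseudocount of 1 was used for log2 levels and of 0.5 for ratios. Scripts were tested on simulated data with known changes.

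The members and gene lists were chosen with earlier results of these data known. Genes named beside the members were the first 6 and any called gene of the metabolism list (some of its genes are not reported here), and the 3 genes with the highest Spearman's rho to each member over somas, among genes with at least 10 reads in at least 4 somas. Lists of markers for GABAergic, glutamatergic and other cell types served as checks. Alternatives covered the test, scaling, filter, block, counted feature, depth, rounds and single neurons, and the exclusion of neurons 2 and 14, of 1 and 2, and of 2 among those with 3 rounds, and features ranked by pooled reads, were added after the data were seen.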

Additional observations from a re-analysis of the deposited data

Results flagged for a closer look

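Groups of 4 neurons with 3 rounds of amplification were small enough for a test of single libraries (the gap to the nearest value over the whole range, against Dixon's 95% critical value). Of 10 groups tested, 1 gene in 1 compartment each, 3 were past it, and chance alone passes about 1 group in 20. That rate does not hold for *Slc6a11* in dendrites, where the other 3 values were 0 and any single read would pass. All 3 concerned neuron 2. *Slc32a1* reached 3392 normalized reads in dendrite 2 against 1074 to 1402 in the other 3. *Slc6a11* had 4.83 normalized reads, a single read, in dendrite 2 against 0 in the others, and 176 normalized reads in soma 2 against 0 to 28.0. Neuron 2 is also the one whose soma library held the most glutamatergic marker reads, and the part of that in these values was not tested.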

How the results depend on the processing

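The edgeR test called 90 genes with the higher level in dendrites and 621 with the higher level in somas. These counts were 463 and 5029 with DESeq2, 548 and 92 with dendrites rescaled, 41 and 306 with 2 rounds, 3 and 1 with 3 rounds, 39 and 17 with 3 rounds without neuron 2, 15 and 143 without a filter, and 157 and 77 with no replicate block, where the pairing was not used. The soma count was 181 with at least 10 reads, 1008 with DESeq2 size factors, 292 at equal reads and 257 on exons. Leaving out 1 neuron gave 56 (without 4) to 120 (without 15) and 130 (without 16) to 990 (without 5), with shifts over 1.5 times for the soma count without neurons 1, 2, 3, 4, 5, 7, 10, 12, 13, 15 or 16 and for the dendrite count without 4, 7 or 10. The cause of these shifts was not tested.

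*Gad1* stayed called, at log2 fold changes of -1.76 to -1.11, with each neuron left out, and in all other settings except after rescaling (-0.088) and with 3 rounds (-0.12, and -0.72 without neuron 2). *Gad2* was called by DESeq2 (-1.003, adjusted p = 0.0117), and turned to 0.75 after rescaling and to 0.44 with 3 rounds (0.0082 without neuron 2), and ran from -0.87 (without 2) to -0.36 (without 13). *Slc32a1* turned to 0.86 and 0.95 in the same settings (0.27 with 3 rounds without neuron 2), and ran from -0.87 (without 2) to -0.065 (without 13). *Abat* turned to 1.22 after rescaling, 0.56 with 3 rounds (0.21 without neuron 2), 0.069 with at least 10 reads, 0.16 at equal reads and 0.14 on exons, and ran from -0.38 (without neuron 2) to 0.15 (without 15), positive without neurons 3, 13 or 15. Without the replicate block *Gad1* had -1.47 (adjusted p = 0.0167, edgeR), and the pairing changed no other call of a member. 

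The difference between rounds was called for 24 and 20 genes by DESeq2 and for 1 on exons. Unpaired, with no replicate block, 481 genes passed the 3′ end test in place of 296. At 1 read, *Slc6a11* was detected in 3 dendrites. On raw reads the dendritic fraction was 0.147 for *Gad1*, 0.193 for *Gad2*, 0.245 for *Slc32a1* and 0.239 for *Abat*, since somas were deeper. A higher normalized level in dendrites than in the soma was found for *Gad1* in 0 neurons and for *Gad2* in 1 without neuron 2, and for both in 0 without neurons 2 and 14. *Slc6a11* in dendrites, where single reads carry little weight, had r = -0.50 with the log10 of total reads (rho = -0.59, n = 16). *Slc32a1* in dendrites had r = -0.02 (rho = -0.30, n = 16). The cause of these values was not tested.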

Other observations

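In the list of GABA and glutamate genes, the 3 genes with an unadjusted p under 0.05 were named after their values were seen. *Slc1a1*, the neuronal glutamate transporter, had a log2 fold change of dendrites over somas of -3.00 ± 1.04 SE (adjusted p = 0.0650, edgeR). *Slc38a2*, which takes up glutamine and other neutral amino acids, had -3.68 ± 1.33 (adjusted p = 0.0720, edgeR), and *Aldh9a1*, an aldehyde dehydrogenase that can form GABA by another route, -3.10 ± 1.53 (adjusted p = 0.162, edgeR).

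*Slc6a11* could be fitted only in wider or other tables. Its log2 fold change was -5.58 ± 1.92 with every detected gene kept (adjusted p = 0.132, edgeR) and -4.58 ± 1.61 on exon reads (adjusted p = 0.0729, edgeR), and both sizes depend on the prior count because 13 dendrites had no read on the 3′UTR and only 5 had a read on exons.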
